A study of Homo sapiens with 42 samples.

Results

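The genes of the upper glycolysis enzymes were followed through RNA-seq libraries of a renal carcinoma cell line in which HIF-1α, HIF-2α or exchanges of their domains had been expressed. The members were taken by gene symbol: HK1, HK2, GPI, PFKL, PFKM, PFKP, ALDOA, ALDOC and TPI1, which are 9 of the 60609 gene rows counted in each library. Glycolysis turns glucose into pyruvate, and its upper steps trap glucose in the cell and split it into triose phosphates. Hexokinase phosphorylates glucose, glucose-6-phosphate isomerase converts the product to fructose 6-phosphate, phosphofructokinase adds the next phosphate in the committed step, aldolase cleaves the sugar, and triosephosphate isomerase interconverts the products. Many of these genes are known targets of the hypoxia-inducible factors (HIFs), dimers of an oxygen-sensitive α subunit with HIF-1β that bind the DNA core RCGTG, and clear cell renal carcinoma is known for high HIF activity and for glucose-dependent metabolism.

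All libraries came from 786-O, an established clear cell renal cell carcinoma (ccRCC) line that lacks functional VHL, so that HIF-2α is stable in normal oxygen, and that has no functional HIF-1α. Cells grew in medium with 4.5 g/L glucose and 1 mM pyruvate. Polyadenylated RNA was sequenced in 2 batches of 27 and 15 libraries, 3 per group. The batches differed in extraction kit, library kit and read length, and were not mixed within a comparison except where stated. The first batch held parental (WT) cells, the single homozygous clones HIF-1β KIN (A21) and HIF-2α KIN (A31) with a V5-Halo tag on the endogenous protein, and lines with an added V5-Halo-tagged transgene: HIF-1α, HIF-1α R30E (DNA-binding mutant), HIF-1αDM (R170A and V191D, dimerization mutant), HIF-2α, HIF-2α R27E (DNA-binding mutant) and HIF-2αDM (R171A and V192D, dimerization mutant). The second batch held WT cells, the HIF-1α and HIF-2α lines, and the chimeras HIF-2α/1α and HIF-1α/2α. In HIF-2α/1α the structured N-terminal domain of HIF-2α, up to residue 365, was joined to the intrinsically disordered region (IDR) of HIF-1α, residues 364 to 826. HIF-1α/2α joined HIF-1α up to residue 363 to the HIF-2α IDR, residues 366 to 870. Every transgene was driven by the weak constitutive L30 promoter in cells that kept their endogenous HIF-2α, and its expression varied from cell to cell within a line.

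Counted reads per library ran from 42377599 to 101186554 in the first batch, and the second had 76366799 to 109642159. Counts of HIF1A and EPAS1, the genes of HIF-1α and HIF-2α, rose in the lines labelled with the corresponding transgene, and the reads of a transgene count on them. The libraries of HIF-2αDM carry a genotype label naming HIF-1α, but EPAS1 (722 ± 77.9 CPM, read counts scaled by library size, mean ± SD, n = 3) and not HIF1A (2.86 ± 0.216 CPM) was raised there. Each gene was also higher, though less so, in the lines of the other unmutated factor. HIF1A averaged 13.7 and 10.4 CPM in the HIF-2α lines of the first and second batch, against 3.62 and 3.29 CPM in WT cells. EPAS1 averaged 342 and 184 CPM in the HIF-1α lines, against 217 and 142 CPM in WT cells. Why they were higher was not tested. The renal markers PAX8 (205 CPM or more) and KRT8 (763 CPM or more) were present in every library, while the immune, endothelial, liver and muscle markers PTPRC, PECAM1, CDH5, ALB and MYOG never exceeded 14 counts. In the first batch the libraries numbered 3 stood apart: ALDOA was highest and both PFKM and TPI1 were lowest in the library numbered 3 in 9 of 9 groups. These libraries held 72801922 to 101186554 reads, against 42377599 to 76188914 in the libraries numbered 1 and 2. The methods speak of biological replicates without saying whether the 3 libraries of a group came from separate cultures, so p-values measure the spread between these libraries, which may be technical.

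ALDOC and GPI separated HIF-1α from HIF-2α. HK2 rose in the transgenic lines of the second batch other than HIF-2α/1α, and PFKL rose in all 4 transgenic lines. For these 4 genes, whose responses contrast most clearly, the stretches just before the RefSeq start sites are shown. Each is read 5′ to 3′ from RefSeq (GRCh38.p14) and covers the 250 bases before the start, with matches to ACGTG or GCGTG, on either strand, in capitals, so that CACGT and CACGC are matches on the opposite strand and CACGTG is one on both.
ALDOC, chr17:28576896-28577145, minus strand: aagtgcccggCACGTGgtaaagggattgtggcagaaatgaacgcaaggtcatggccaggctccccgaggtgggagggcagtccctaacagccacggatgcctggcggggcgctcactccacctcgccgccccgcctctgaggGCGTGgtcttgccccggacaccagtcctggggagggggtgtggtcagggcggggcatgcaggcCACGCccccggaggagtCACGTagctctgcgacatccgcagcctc
GPI, chr19:34364742-34364991, plus strand: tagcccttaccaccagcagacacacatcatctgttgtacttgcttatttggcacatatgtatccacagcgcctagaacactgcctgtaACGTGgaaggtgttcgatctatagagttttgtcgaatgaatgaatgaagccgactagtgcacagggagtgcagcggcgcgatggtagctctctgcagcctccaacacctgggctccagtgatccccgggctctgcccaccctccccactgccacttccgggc
HK2, chr2:74833877-74834126, plus strand: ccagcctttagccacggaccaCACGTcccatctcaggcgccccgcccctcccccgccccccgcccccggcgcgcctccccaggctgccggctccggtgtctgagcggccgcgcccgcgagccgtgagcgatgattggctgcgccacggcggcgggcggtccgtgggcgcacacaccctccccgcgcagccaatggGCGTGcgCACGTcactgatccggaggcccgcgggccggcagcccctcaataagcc
PFKL, chr21:44299803-44300052, plus strand: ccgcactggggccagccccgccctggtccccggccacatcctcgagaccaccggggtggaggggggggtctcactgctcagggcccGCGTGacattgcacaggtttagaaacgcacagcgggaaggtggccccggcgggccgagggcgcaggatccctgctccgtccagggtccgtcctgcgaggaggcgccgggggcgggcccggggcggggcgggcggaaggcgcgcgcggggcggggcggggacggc
The search covered 300-base windows, from 250 bases before to 50 after each RefSeq start. The ALDOC window held 5 matches, at 3 of which the letters were ACGTG. The HK2 window shown held 3 matches, of which 2 lay 55 and 48 bases before the start, and a further HK2 window at a start inside the gene held 4 ACGTG and 2 GCGTG. GPI had a single ACGTG 162 bases before its RefSeq start, which lies inside the longer GENCODE gene, and PFKL a single GCGTG 164 bases before it. Of the 9 members, 7 had an ACGTG in at least 1 window (HK1 and PFKL did not) and 9 had either motif, against 24.9% and 52.4% of the 27305 genes with a window. HK1 and PFKM had 7 windows each and the other members 1 to 4, and a match is a description of the letters only.

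The first question was how each factor changed the upper steps when added to cells that already contain HIF-2α. In the second batch, HIF-1α raised 8 members and lowered 1, PFKM, at a Benjamini-Hochberg adjusted p of at most 0.01 in edgeR's quasi-likelihood test, which called 9.32% of the 28724 tested genes higher and 7.79% lower. HIF-2α raised 6 (HK1, HK2, PFKL, PFKP, ALDOA and TPI1) and lowered 2 (GPI and PFKM), against 12.9% and 14.6% of all genes. With HIF-2α/1α, 7 members rose and 1 fell, and HK2 did not pass, against 8.37% and 8.80% of all genes. With HIF-1α/2α, 6 rose and 3 fell, against 13.2% and 14.8%. The median log2 change of the 9 members was 0.94 with HIF-1α, 0.40 with HIF-2α, 0.44 with HIF-2α/1α and 0.43 with HIF-1α/2α, while that of all tested genes lay between 0.02 and 0.06 in these comparisons. The 4 comparisons share the 3 WT libraries.

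**Figure D1:**
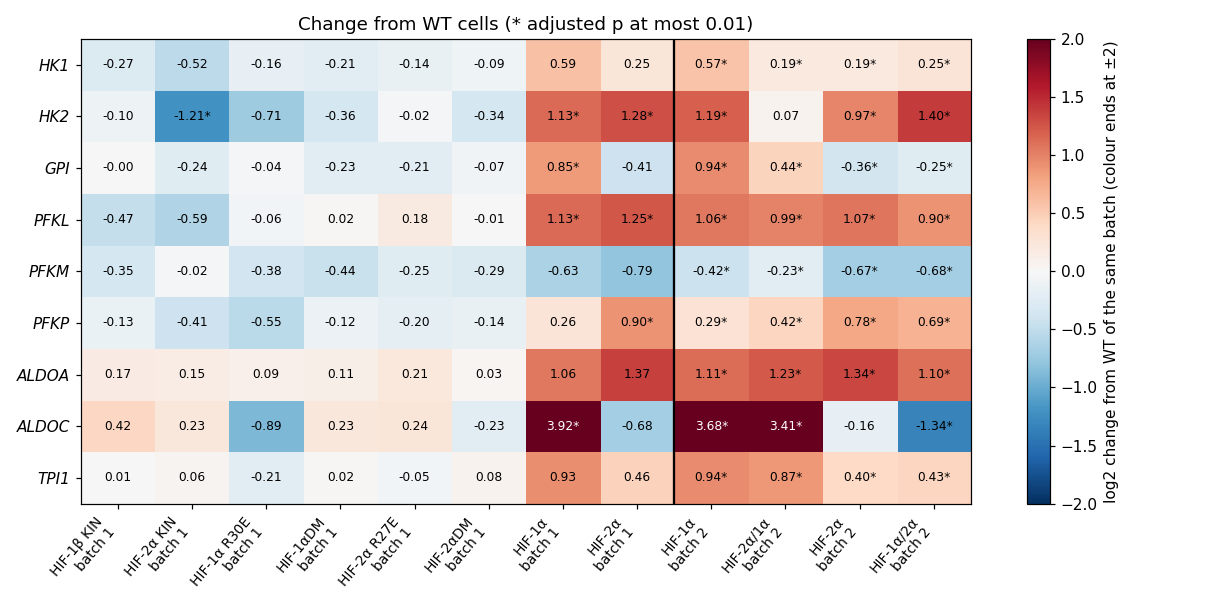
Log2 change of each gene (rows) from the WT cells of its own batch in each line (columns), from edgeR fits with 3 libraries per group, with an asterisk where the adjusted p was at most 0.01. ALDOC stands out at 3.92 and 3.68 for HIF-1α in the 2 batches and at 3.41 for HIF-2α/1α, and the colour scale ends at 2 in either direction.

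At the hexokinase step, the widely expressed HK1 (chr10:69269984-69401884, plus strand; gene positions are from GENCODE release 44 on hg38) and HK2 (chr2:74834127-74893359, plus strand), the isozyme of insulin-sensitive tissues and of many tumours, responded differently. HK2 counted 55.9, 53.9 and 53.0 CPM in the 3 WT libraries of the second batch and 131, 124 and 117 CPM with HIF-1α. With HIF-2α it counted 107, 111 and 102 CPM, and with HIF-1α/2α 149, 145 and 135 CPM. With HIF-2α/1α the values were 60.8, 56.9 and 53.0 CPM and overlapped those of WT cells, whereas none of the other lines did. On the log2 scale HK2 rose by 1.19 ± 0.0587 (SE) with HIF-1α, by 0.97 ± 0.0586 with HIF-2α and by 1.40 ± 0.0589 with HIF-1α/2α (edgeR adjusted p at most 2.12e-18), and the change with HIF-2α/1α was 0.07 ± 0.0585 (edgeR adjusted p = 0.462).

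HK1 ranged from 339.9 to 344 CPM in WT cells and from 499 to 515 CPM with HIF-1α. It lay between 374 and 419 CPM in the libraries of the other 3 lines, above all WT libraries and below all HIF-1α libraries. The log2 changes were 0.57 ± 0.0494 with HIF-1α (edgeR adjusted p = 5.98e-13), 0.19 ± 0.0494 with both HIF-2α/1α (edgeR adjusted p = 0.00266) and HIF-2α (edgeR adjusted p = 0.0019), and 0.25 ± 0.0494 with HIF-1α/2α (edgeR adjusted p = 4.45e-05). The call with HIF-2α/1α was lost without the first WT library (0.19) or the first HIF-2α/1α library (0.15), and that with HIF-2α without the first WT library (0.18) or the first HIF-2α library (0.17).

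GPI (chr19:34359480-34402413, plus strand), the isomerase of the next step, moved in opposite directions with the 2 factors. Its WT libraries held 339, 331 and 340.3 CPM. The HIF-1α libraries held 662.5, 647 and 633 CPM, and the HIF-2α/1α libraries 480.4, 446 and 448 CPM. With HIF-2α the values were 280.3, 253 and 253 CPM, and with HIF-1α/2α 268, 299 and 284 CPM. No line overlapped WT cells: GPI rose by 0.94 ± 0.0505 with HIF-1α and by 0.44 ± 0.0502 with HIF-2α/1α, and it fell by 0.36 ± 0.0503 with HIF-2α and by 0.25 ± 0.0502 with HIF-1α/2α (edgeR adjusted p at most 7.13e-05). GPI shares 13.1% of the exon bases of its MANE Select transcript, the reference transcript of the gene, chiefly with the overlapping gene AC092073.1, and reads there are not counted on either gene.

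Phosphofructokinase is built from liver (PFKL, chr21:44300051-44327376), muscle (PFKM, chr12:48105139-48146404) and platelet (PFKP, chr10:3066333-3137718) subunits, all encoded on the plus strand. PFKL counted 220 to 244 CPM in WT cells and 397 to 510.4 CPM in the 4 lines. Its rises were 1.06 with HIF-1α, 1.07 with HIF-2α, 0.99 with HIF-2α/1α and 0.90 with HIF-1α/2α, with standard errors of at most 0.0542 (edgeR adjusted p at most 2.18e-18). HIF-2α and HIF-1α differed by 0.01 ± 0.0535 (edgeR adjusted p = 0.924), and scaling by library totals alone turned this to -0.03.

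PFKP rose less with the HIF-1α IDR than with that of HIF-2α. It held 1086 to 1122 CPM in WT cells, 1332 to 1371 CPM with HIF-1α, 1852 to 2006 CPM with HIF-2α, 1416 to 1583 CPM with HIF-2α/1α and 1722 to 1869 CPM with HIF-1α/2α. Its log2 changes were 0.29 ± 0.0461, 0.78 ± 0.0463, 0.42 ± 0.0461 and 0.69 ± 0.0462 in that order (edgeR adjusted p at most 2.71e-06). PFKM was the member that fell in all 4 lines, from 85.2 to 88.8 CPM in WT cells to 61.7 to 68.7 CPM with HIF-1α, 53.6 to 55.5 CPM with HIF-2α, 71.5 to 77.2 CPM with HIF-2α/1α and 53.3 to 56.2 CPM with HIF-1α/2α. It fell by 0.42 ± 0.0562, 0.67 ± 0.0566, 0.23 ± 0.0561 and 0.68 ± 0.0565 respectively, with no overlap with WT cells (edgeR adjusted p at most 0.00128). The fall with HIF-2α/1α lost its call without the third WT library (-0.21) or without the second (-0.21) or the third (-0.20) HIF-2α/1α library.

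Aldolase showed the largest difference between isozymes. ALDOC (chr17:28573115-28576948, minus strand), the isozyme best known from brain, was scarce in WT cells at 2.72, 2.38 and 3.61 CPM. The HIF-1α libraries held 41.4, 38.4 and 31.3 CPM and the HIF-2α/1α libraries 36.6, 32.2 and 23.4 CPM, all far above WT cells. The HIF-2α libraries held 3.09, 2.94 and 1.70 CPM and overlapped WT cells, and the HIF-1α/2α libraries held 1.10, 1.24 and 1.08 CPM, below all of them. ALDOC was 12.8-fold higher with HIF-1α (log2 change 3.68 ± 0.145, edgeR adjusted p = 2.01e-24) and 10.7-fold higher with HIF-2α/1α (3.41 ± 0.145, edgeR adjusted p = 4.58e-23). It fell by 1.34 ± 0.178 with HIF-1α/2α (edgeR adjusted p = 2.54e-08), and its change with HIF-2α was -0.16 ± 0.160 (edgeR adjusted p = 0.504), which turned to 0.05 without the third WT library and to 0.09 without the third HIF-2α library.

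ALDOA (chr16:30064164-30070457, plus strand), the isozyme of muscle and most other tissues, counted 27.2 to 33.1 CPM in WT cells and 61.8 to 81.0 CPM in the 4 lines. It rose by 1.11 ± 0.0691 with HIF-1α, 1.34 ± 0.0694 with HIF-2α, 1.23 ± 0.0693 with HIF-2α/1α and 1.10 ± 0.0692 with HIF-1α/2α (edgeR adjusted p at most 1.78e-17). These counts are uncertain, because 89.8% of the exon bases of the ALDOA MANE Select transcript also belong to other counted genes, chiefly AC093512.2 on the same strand, and reads in shared bases are not counted on either. AC093512.2 itself counted 2.31 ± 0.0668 CPM in WT cells and 3.21 ± 0.237, 5.59 ± 0.341, 3.43 ± 0.141 and 4.86 ± 0.389 CPM in the lines in the same order, so no level of ALDOA per kilobase is given beside those of other genes. For ALDOC, 18.2% of those bases are shared, chiefly with the antisense RNA gene AC005726.4, and counting did not use strand.

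TPI1 (chr12:6867119-6870948, plus strand), which closes the upper stage of the pathway, counted 966 to 1023 CPM in WT cells and rose in every line. It reached 1874 to 1935 CPM with HIF-1α and 1743 to 1852 CPM with HIF-2α/1α, and lower levels of 1230.2 to 1388 CPM with HIF-2α and 1271 to 1368 CPM with HIF-1α/2α. The rises were 0.94 ± 0.0464, 0.87 ± 0.0464, 0.40 ± 0.0461 and 0.43 ± 0.0461 (edgeR adjusted p at most 9.51e-10), without overlap with WT cells. TPI1 has processed pseudogenes, and only uniquely mapped reads had been kept, so its level may be understated.

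**Figure D2:**
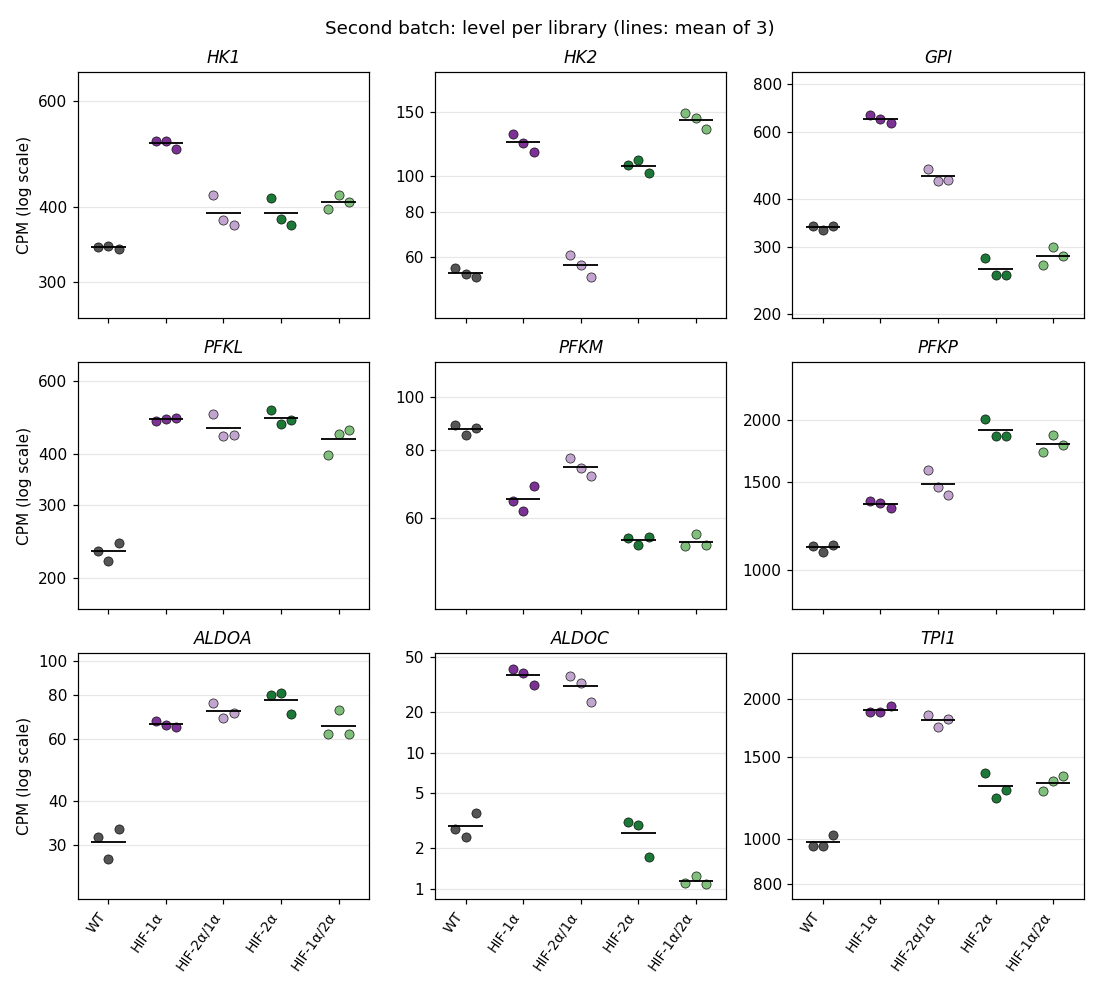
Library-scaled counts (CPM) on a log axis for each gene (panels) in the 3 libraries (points) of each group of the second batch, with a line at the mean. For ALDOC, HIF-1α and HIF-2α/1α sit between 23.4 and 41.4 CPM and the remaining groups between 1.08 and 3.61 CPM, whereas PFKL is between 397 and 510.4 CPM in all 4 transgenic lines.

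The 4 transgenic lines of the second batch form a factorial design, which asks which part of the protein goes with each response. The IDR effect is the mean of the 2 lines with a HIF-2α IDR (HIF-2α and HIF-1α/2α) minus that of the 2 with a HIF-1α IDR (HIF-1α and HIF-2α/1α), and the structured-domain effect is the like difference for the N-terminal part. Reads on HIF1A and EPAS1 differed among these lines. HIF1A counted 148 ± 5.46 CPM in HIF-1α and 107 ± 0.775 CPM in HIF-2α/1α. EPAS1, whose 142 ± 8.93 CPM in WT cells are endogenous, counted 473 ± 7.14 CPM in HIF-2α and 572 ± 35.1 CPM in HIF-1α/2α. The reads of a chimera fall on both genes, and HIF-2α/1α held 231 ± 13.8 CPM of EPAS1 and HIF-1α/2α 108 ± 7.15 CPM of HIF1A. Either gene's count in a chimera covers only part of its transgene, so it does not rank the chimera against a whole factor. The part of these differences in the results was not tested. Each combination of IDR and structured domain was a single line, so the p-values of both effects do not measure the spread between lines.

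The IDR effect passed the test for 7 of 9 members, 2 higher with the HIF-2α IDR (10.9% of all genes were) and 5 lower (13.9%). It was by far largest for ALDOC, at -4.30 ± 0.111, or 19.7-fold lower with the HIF-2α IDR (edgeR adjusted p = 7.48e-32). GPI was lower by a log2 difference of -0.998 ± 0.0358 (edgeR adjusted p = 1.83e-26), TPI1 of -0.49 ± 0.0326, PFKM of -0.35 ± 0.0400 and HK1 of -0.16 ± 0.0349. HK2 and PFKP were higher with the HIF-2α IDR, by 0.56 ± 0.0410 and 0.38 ± 0.0326. The effects on PFKL (-0.04 ± 0.0379, edgeR adjusted p = 0.491) and ALDOA (0.04 ± 0.0478, edgeR adjusted p = 0.546) did not pass, and that on PFKL turned to 0.0017 without the first library of HIF-2α/1α and to 0.0045 without that of HIF-1α/2α. The 7 effects that passed did so in each of the 12 fits that left out a library of these lines.

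The structured-domain effect passed for 5 members, 2 higher with the HIF-2α domain (5.18% of all genes were) and 3 lower (6.23%). HK2 had the largest effect, -0.77 ± 0.0411 (edgeR adjusted p = 2.76e-19), opposite in sign to its IDR effect. GPI (-0.31 ± 0.0355) and HK1 (-0.22 ± 0.0349) were also lower with the HIF-2α domain. ALDOC was higher by 0.46 ± 0.111 (edgeR adjusted p = 0.00193) and ALDOA by 0.18 ± 0.0478 (edgeR adjusted p = 0.00471). For ALDOC this mean joined differences of opposite sign in mean log2 CPM, -0.28 between the lines with the HIF-1α IDR, where it was abundant, and 1.11 between those with the HIF-2α IDR, where it was scarce. The ALDOC call was lost without the first HIF-2α library (0.39) and with DESeq2 (0.47, adjusted p = 0.0311), and the ALDOA call without the first or second HIF-2α library (0.18 and 0.17), the first HIF-2α/1α library (0.17) or the first HIF-1α/2α library (0.17). PFKP lay just above the threshold (0.11 ± 0.0325, edgeR adjusted p = 0.0103) and passed without the second or the third HIF-2α library (0.13 and 0.13), the second or the third HIF-2α/1α library (0.13 and 0.14) or the second HIF-1α/2α library (0.14). It also passed with DESeq2 and in the other 5 fits that left out no single library (0.11 to 0.13), and PFKM passed with DESeq2 (0.12, adjusted p = 0.0097).

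**Figure D3:**
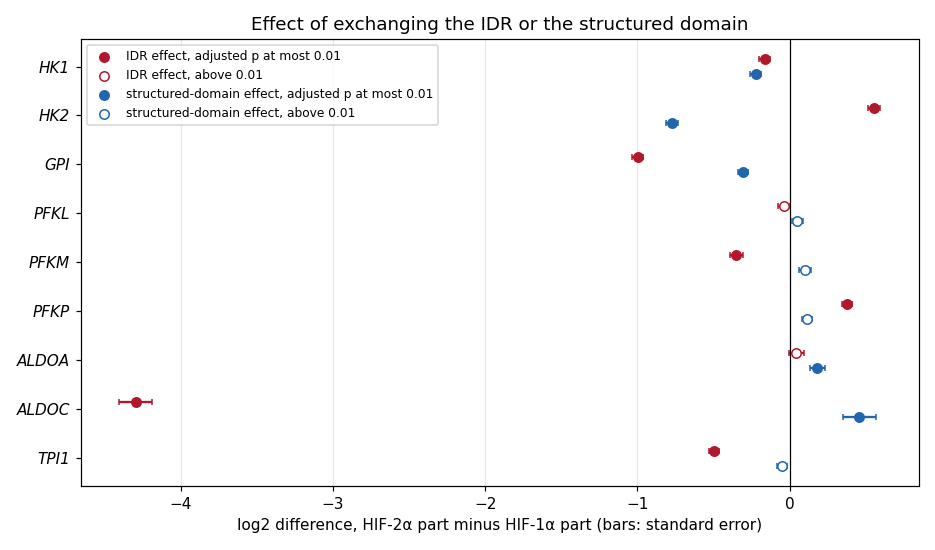
Log2 difference (points, horizontal axis, with the standard error as bars) between lines with the HIF-2α and the HIF-1α form of the IDR (red) or of the structured domain (blue), 6 against 6 libraries, with filled points where the edgeR adjusted p was at most 0.01. ALDOC lies at -4.30 for the IDR, and HK2 lies on opposite sides of 0 for the 2 parts, at 0.56 and -0.77.

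For 4 members the IDR effect differed with the structured domain beside it (edgeR interaction contrast, 3.27% of all genes were positive and 2.12% negative). HK2 was higher with the HIF-2α IDR by 0.91 next to the HIF-2α domain and by 0.21 next to the HIF-1α domain, a difference of 0.70 ± 0.0819 (edgeR adjusted p = 2.28e-08), and HIF-2α/1α was the line in which HK2 did not pass against WT cells. ALDOC was lower with the HIF-2α IDR by a log2 difference of -4.99 next to the HIF-1α domain and -3.59 next to the HIF-2α domain (difference 1.45 ± 0.221, edgeR adjusted p = 5.62e-06). GPI was lower by -1.19 and -0.81 (difference 0.39 ± 0.0709, edgeR adjusted p = 0.000131), and HK1 by -0.32 and -0.003 (difference 0.32 ± 0.0698, edgeR adjusted p = 0.00131). These differences within 1 domain are from mean log2 CPM and were not tested singly. The HK1 interaction was 0.28 without the first HIF-2α library and no longer passed. That of PFKL (0.25 ± 0.0757, edgeR adjusted p = 0.0302) passed without the first HIF-2α/1α library (0.31).

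HIF-2α and HIF-1α themselves, compared directly, differed in 8 of 9 members, with 2 higher with HIF-2α (7.36% of all genes were) and 6 lower (10.5%). ALDOC was lower by -3.84 ± 0.149, GPI by -1.30 ± 0.0509, TPI1 by -0.54 ± 0.0462 and HK1 by -0.39 ± 0.0494, and PFKP was higher by 0.49 ± 0.0461. The smaller differences of ALDOA (0.23 ± 0.0676), PFKM (-0.25 ± 0.0566) and HK2 (-0.22 ± 0.0577) kept their sign whichever library was left out, but not always their calls. ALDOA lost its call without any HIF-1α library (0.23 to 0.26) or the first or second HIF-2α library (0.22 and 0.21). PFKM lost it without the third HIF-1α (-0.18) or second HIF-2α library (-0.21), and HK2 without the first or second HIF-1α library (-0.15 and -0.20) or the first or the third HIF-2α library (-0.20 and -0.17).

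Steps with several isozymes were then compared by the share of each isozyme, in CPM per kilobase of the MANE Select transcript. In WT cells of the second batch HK1 held 95.1 ± 0.609 and HK2 9.65 ± 0.269 CPM per kilobase, so that HK2 made up 9.21% ± 0.203 (SD, n = 3) of the hexokinase transcripts. The share was 13.5% ± 0.492 with HIF-1α, 14.9% ± 0.707 with HIF-2α, 8.53% ± 0.203 with HIF-2α/1α and 18.3% ± 0.967 with HIF-1α/2α. PFKP was the main phosphofructokinase subunit in all groups, with 79.6% ± 0.420 in WT cells, 73.3% ± 0.522 with HIF-1α, 79.6% ± 0.259 with HIF-2α, 75.6% ± 0.344 with HIF-2α/1α and 80.4% ± 0.737 with HIF-1α/2α. The PFKL share went from 15.1% ± 0.460 in WT cells to 23.7% ± 0.378 with HIF-1α and 18.4% ± 0.193 with HIF-2α, and that of PFKM from 5.32% ± 0.0553 to 2.99% ± 0.179 and 1.95% ± 0.0791.

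The balance of isozymes within a step, as the log2 ratio of their CPM in the same library, was compared between the 6 libraries with a HIF-2α part and the 6 with a HIF-1α part (exact permutation test, two-sided, smallest possible p = 0.00217, adjusted over 8 tests). With the HIF-2α IDR the ratio of HK2 to HK1 was higher by 0.72 and that of PFKP to PFKL by 0.42, and that of ALDOC to ALDOA was lower by -4.33, with no overlap of the libraries (exact permutation p = 0.00217, adjusted p = 0.00577). The level of ALDOA in the last of these ratios is uncertain, because 89.8% of its transcript's bases are shared. The ratio of PFKM to PFKL differed by -0.31 (exact permutation p = 0.00433, adjusted p = 0.00866). The test pooled the lines over the other part of the protein. It shuffled single libraries, although those of the same line lie close together, so its p-values do not measure the spread between lines. For the structured domain the ratio of HK2 to HK1 differed by -0.55 (exact permutation adjusted p = 0.0866), although within each IDR it was lower with the HIF-2α domain without overlap, at a mean of -2.78 against -2.04 with the HIF-1α IDR and -1.87 against -1.51 with the HIF-2α IDR. The other 3 ratios differed by 0.05 to 0.23 (exact permutation adjusted p = 0.721 for each).

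**Figure D4:**
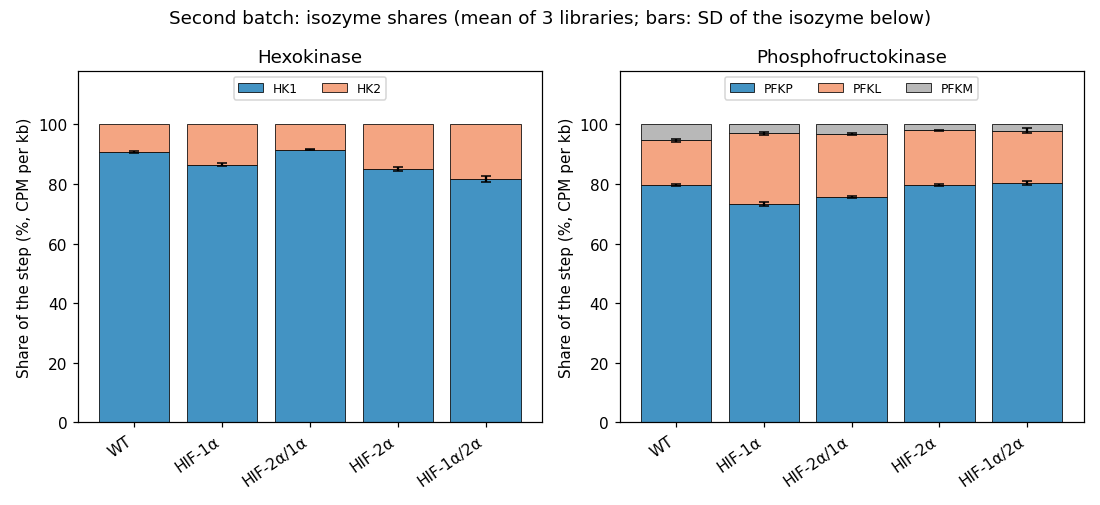
Share of each isozyme in the transcripts of its step (stacked bars from 0, percent of CPM per kilobase, mean of 3 libraries, error bars the SD of the isozyme under each boundary) in the groups of the second batch. HK2 is smallest with HIF-2α/1α (8.53%) and largest with HIF-1α/2α (18.3%), and PFKP lies between 73.3% and 80.4%.

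The first batch held the same 2 wild-type factors with their mutants and the tagged clones. Its replicates varied more than those of the second batch, and same-numbered libraries deviated together, so values with the replicate number added to the fit (the block) are given where they change a call. Shares of all genes are from the fits of all libraries without the block. They were not counted under other settings, so member counts with the block or without the libraries numbered 3 have no such share beside them. HIF-1α raised 4 members, ALDOC, HK2, PFKL and GPI, against 3.75% of the 23410 tested genes, and 7 with the block. ALDOC held 4.46, 4.69 and 3.76 CPM in WT cells and 81.9, 72.6 and 40.6 CPM with HIF-1α, a log2 change of 3.92 ± 0.314 (edgeR adjusted p = 1.88e-09). HK2 rose by 1.13 ± 0.190, PFKL by 1.13 ± 0.228 and GPI by 0.85 ± 0.179. GPI lost its call without the first WT library (0.73) or the first HIF-1α library (0.80), and PFKL without the first (0.99) or second (1.11) WT library. With the block TPI1 (0.90), HK1 (0.59) and ALDOA (1.08) also rose (edgeR adjusted p at most 0.00384), while without it their adjusted p were 0.0369, 0.0334 and 0.296 in edgeR. TPI1 and ALDOA also passed with no filter on low counts, TPI1 and HK1 with DESeq2, and HK1 with library totals only. The change of ALDOA ranged from 0.44 without the third HIF-1α library to 1.73 without the third WT library. Without the libraries numbered 3 the count was 6, with TPI1 at 1.03 and ALDOA at 1.14.

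HIF-2α raised HK2, PFKL and PFKP in the first batch, against 5.14% of all genes, and with the block ALDOA rose and PFKM fell too, which made 5 (2.93% of all genes were lower without it). HK2 held 55.5, 71.1 and 66.0 CPM in WT cells and 155, 142 and 172 CPM with HIF-2α, a rise of 1.28 ± 0.191 (edgeR adjusted p = 2.05e-05). PFKL rose by 1.25 ± 0.228 and PFKP by 0.90 ± 0.188, though PFKP lost its call without the first (0.78) or second (0.85) WT library or the third HIF-2α library (0.81). The changes of ALDOA and PFKM with the block were 1.45 (edgeR adjusted p = 4.17e-07) and -0.78 (edgeR adjusted p = 0.0048). Without the libraries numbered 3, ALDOA was at 1.59 and passed and PFKM was at -0.82 and did not (edgeR adjusted p = 0.0191), and with no filter on low counts both passed. Leaving out the third HIF-2α library gave 0.90 for ALDOA, and leaving out the third WT library 2.02. Against HIF-1α, HIF-2α left ALDOC lower by -4.60 ± 0.327 and GPI by -1.26 ± 0.181 (1.67% of all genes were lower and 1.4% higher), and PFKP passed with the block (0.63, edgeR adjusted p = 0.00154) and with DESeq2 (0.64) but not without the block in edgeR (adjusted p = 0.047).

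The mutants address whether these responses needed DNA binding and dimerization. HIF1A counted 45.2 CPM in HIF-1α, 37.5 CPM in HIF-1α R30E and 33.3 CPM in HIF-1αDM. EPAS1 counted 673 CPM in HIF-2α, 836 CPM in HIF-2α R27E and 722 CPM in HIF-2αDM. The part of these level differences in the comparisons was not tested. None of the 9 members passed in any of the 4 mutant lines against WT cells in edgeR, in which 3 of the 36 comparisons had an unadjusted p under 0.05, all with HIF-1α R30E, and DESeq2 called none either, while with no filter on low counts ALDOC passed with HIF-1α R30E (-0.89). The share of all genes called was 3.34% with HIF-1α R30E, 0.449% with HIF-1αDM, 0.508% with HIF-2α R27E and 0.491% with HIF-2αDM. With the block, HIF-1α R30E lowered ALDOC (-0.89), HK2 (-0.71) and PFKP (-0.54), with edgeR adjusted p at most 0.00628. ALDOC held 1.79, 3.16 and 1.98 CPM in that line, below all WT libraries.

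Set directly against its mutants, HIF-1α was higher in 6 members than R30E (1.64% of all genes were) and in 5 than HIF-1αDM (1.35%), and with the block in 8 and 7. ALDOC was higher by 4.81 ± 0.330 and 3.69 ± 0.311 and HK2 by 1.84 ± 0.194 and 1.49 ± 0.192 in the 2 comparisons, in all fits that left out a library. PFKL (1.19 and 1.11), GPI (0.89 and 1.08) and HK1 (0.75 and 0.79) were also higher in both, and PFKP than in R30E (0.81). Against R30E, the calls of HK1 (0.66 to 0.85) and PFKP (0.68 to 0.93) were lost whichever of the 6 libraries was left out, that of GPI without the first HIF-1α library (0.84) or the first or second R30E library (0.85 and 0.84), and that of PFKL without the third HIF-1α library (1.07) or the first or second R30E library (1.21 and 1.02). Against HIF-1αDM, HK1 lost its call whichever library other than the second of HIF-1α was left out (0.71 to 0.91), and PFKL whichever other than the first of HIF-1α (0.99 to 1.16). TPI1 (1.14 and 0.90) and ALDOA (0.97 and 0.95) did not pass in either comparison, but both passed in both with the block (0.93 to 1.13 and 0.83 to 0.93) and with no filter on low counts (edgeR adjusted p at most 0.00779). TPI1 also passed in both without the libraries numbered 3 (1.196 and 0.87) and against R30E with DESeq2 and without the third HIF-1α library alone (1.31). The ALDOA difference from R30E ranged from 0.34 without the third HIF-1α library to 1.45 without the third R30E library, and against HIF-1αDM from 0.33 without the third HIF-1α library to 1.26 without the third HIF-1αDM library.

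HIF-2α was higher in HK2, PFKP and PFKL than HIF-2α R27E (3.00% of all genes were) and than HIF-2αDM (3.31%). The log2 differences were 1.31 ± 0.191 and 1.63 ± 0.193 for HK2, 1.09 ± 0.189 and 1.04 ± 0.189 for PFKP, and 1.06 ± 0.227 and 1.25 ± 0.228 for PFKL. PFKL against R27E lost its call without the third HIF-2α library (0.90) or the first (0.91) or second (0.95) R27E library. With the block, 6 members differed from R27E, with ALDOA (1.31) and TPI1 (0.53) higher and ALDOC lower (-0.93, 2.01% of all genes were lower), and 4 differed from HIF-2αDM, with ALDOA at 1.28. ALDOC and ALDOA against R27E and ALDOA against HIF-2αDM also passed with no filter on low counts, and ALDOC against R27E without the first HIF-2α library (-1.39). The ALDOA difference from R27E ranged from 0.67 without the third HIF-2α library to 2.01 without the third R27E library, that from HIF-2αDM was 0.85 without the third HIF-2α library, and the TPI1 difference from R27E ranged from 0.26 without the third R27E library to 0.66 without the second.

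The clones with tagged endogenous subunits differed from WT cells in few members. In HIF-1β KIN no member passed in edgeR (1.78% of all genes were called), 1 had an unadjusted p under 0.05, and the block and DESeq2 called none either. In HIF-2α KIN, 1 member passed: HK2 held 26.1, 35.7 and 21.8 CPM, below the WT libraries, and fell by 1.21 ± 0.191 (edgeR adjusted p = 7.31e-05, 2.72% of all genes were lower). PFKL fell with the block (-0.58, edgeR adjusted p = 0.00364), and HK1 and PFKP, at -0.52 and -0.41, also had no overlap with WT cells but did not pass. EPAS1 counted 91.7 ± 7.61 CPM in HIF-2α KIN and 217 ± 31.6 CPM in WT cells, and its part in these values was not tested.

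**Figure D5:**
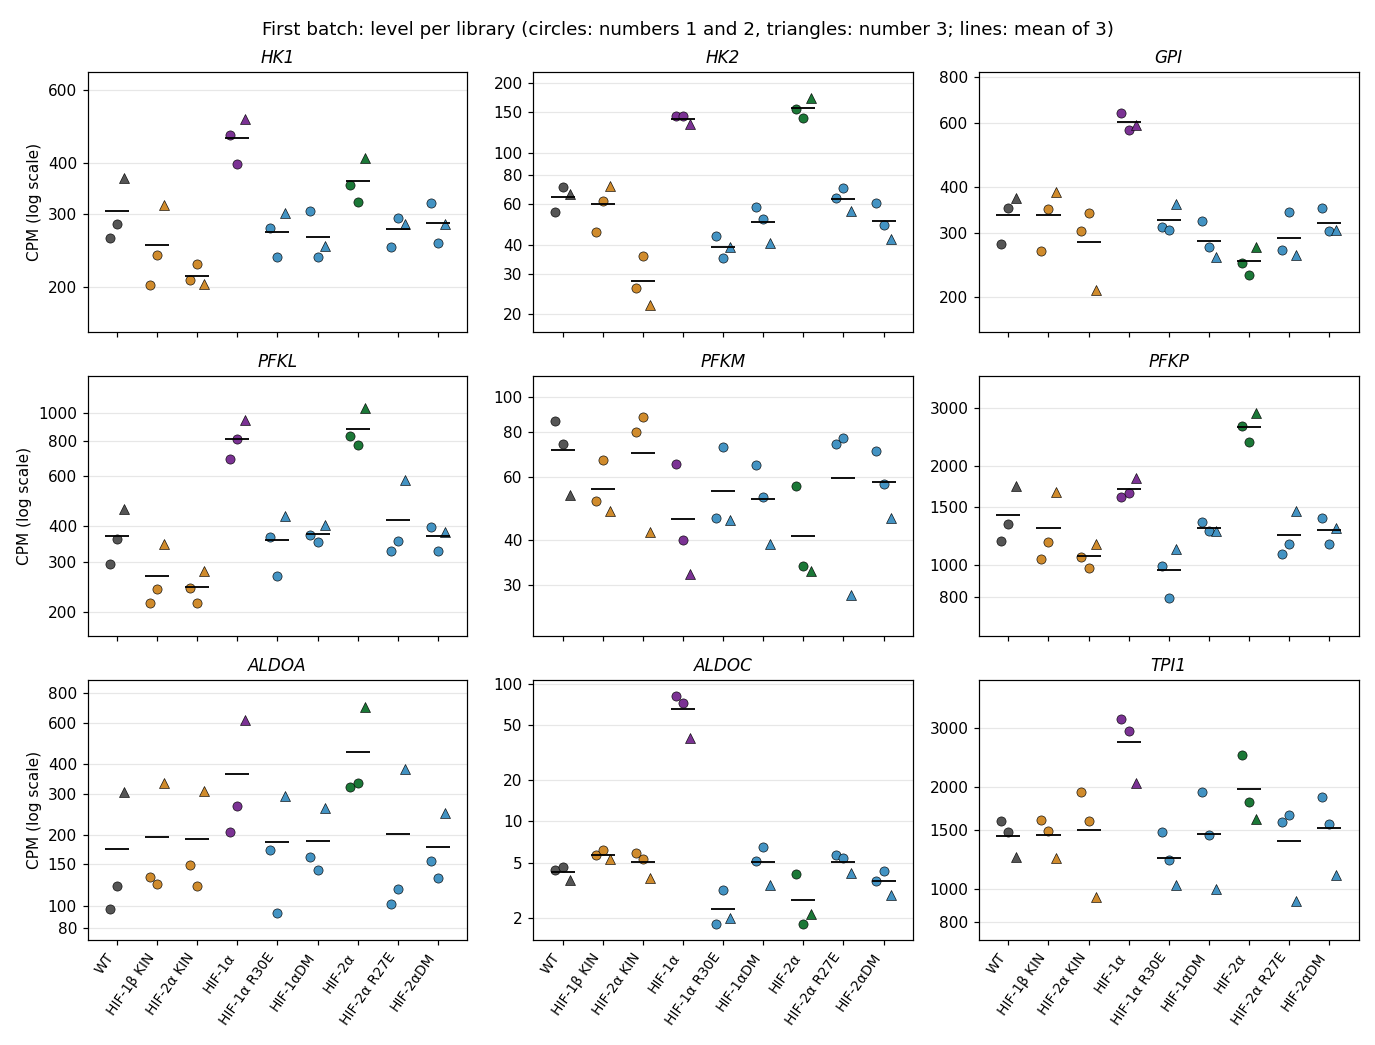
Library-scaled counts (CPM) on a log axis for each gene (panels) in the libraries of the first batch (circles numbered 1 and 2, triangles numbered 3), with a line at the mean of 3. HIF-1α and HIF-2α stand above the other lines for HK2 and PFKL, HIF-1α alone for ALDOC, and the triangles of ALDOA lie above and those of TPI1 and PFKM below the circles in every group.

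Whether the responses differed between batches was tested in 1 fit of 18 libraries, those of WT, HIF-1α and HIF-2α in both. In the HIF-1α line HIF1A counted 45.2 CPM in the first batch and 148 CPM in the second (WT cells: 3.62 and 3.29 CPM). In the HIF-2α line EPAS1 counted 673 and 473 CPM in that order (WT cells: 217 and 142 CPM). The part of these levels in the comparison was not tested. For HIF-1α, the response in the second batch minus that in the first lay between -0.29 (ALDOC) and 0.16 (PFKM), no member passed in edgeR (0.00374% of the 26763 genes did), and none had an unadjusted p under 0.05 in edgeR or DESeq2. For HIF-2α it lay between -0.37 (HK2) and 0.47 (ALDOC), no member and 0% of all genes passed in edgeR, and 1 member, HK2 in edgeR, had an unadjusted p under 0.05 in edgeR and in DESeq2, and 3 had with the block. With standard errors of 0.159 to 0.527 in these contrasts and adjustment over all genes, differences of that size and larger could go undetected. First-batch libraries numbered 1 and 2 held 93.1 to 331 CPM of ALDOA, above its 27.2 to 81.0 CPM in the second batch. The batches were scaled separately and differed in read length, and levels across them are not a test.

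Other genes of the pathway were counted from lists of 25 genes: paralogs of the same steps, lower glycolysis, opposing and regulatory enzymes, exits from the upper steps, and glucose uptake. Of the 24 tested in the second batch, 13 rose and 2 fell with HIF-1α, where 9.32% of all genes were higher and 7.79% lower, and 9 rose and 4 fell with HIF-2α, where these shares were 12.9% and 14.6%, with median log2 changes of 0.41 and 0.39. In lower glycolysis 7 of 7 rose with HIF-1α and 4 of 7 with HIF-2α. PGK1, which makes the first ATP of the pathway, rose by 1.43 with HIF-1α and was at 0.07 with HIF-2α (edgeR adjusted p = 0.23), PGAM1, a mutase, rose by 1.05 and was at -0.02, and ENO2, an enolase, rose by 2.39 and 1.76. LDHA, which reduces pyruvate to lactate, rose by 1.16 and 0.90.

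The regulators PFKFB3 and PFKFB4, which make and degrade the activator of phosphofructokinase fructose 2,6-bisphosphate, rose by 1.59 and 2.91 with HIF-1α and by 0.66 and 1.13 with HIF-2α. Both had a structured-domain effect, -0.82 and -1.30, of the same sign as HK2. The glucose transporters SLC2A1 and SLC2A3 rose by 0.38 and 0.43 with HIF-1α and by 1.51 and 1.58 with HIF-2α, with IDR effects of 1.02 and 0.85. With HIF-1α and HIF-2α in that order, GPD1L, a glycerol-3-phosphate dehydrogenase homologue, fell by 0.63 and 1.10, and the hexokinase-domain paralog HKDC1 fell by 0.59 and 1.60. Over the 24 genes the IDR effect passed upwards for 3 and downwards for 10, against 10.9% and 13.9% of all genes, and the structured-domain effect for 3 and 9, against 5.18% and 6.23%.

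Genes whose pattern was most like that of each member were sought over all 42 libraries, as the Pearson correlation of log2 CPM after subtracting the WT mean of the batch, among 12447 genes with a mean count of at least 50 in both batches. The points share lines and libraries, so the values are descriptions. For ALDOC the closest genes were GPI (r = 0.862), SLC1A1 (0.854) and MPI (0.842), while GPI was closest to GYS1 (0.918). In the 15 libraries of the second batch alone no member kept its closest gene, and ALDOC was closest to EEPD1 (0.981) and GPI to MMP13 (0.976). Over all libraries PFKL was closest to RTL8C (0.958), PFKP to CTDSP1 (0.949), PFKM to CDK5RAP1 (0.942), ALDOA to CFAP410 (0.934), HK2 to DPYSL2 (0.907), HK1 to MAPK7 (0.891) and TPI1 to WDR54 (0.876). Among the members themselves, PFKL and PFKP (0.874), PFKL and HK1 (0.869) and GPI and ALDOC (0.862) were most alike, and PFKM ran opposite to ALDOA (-0.786). PFKM and ALDOA are also the genes in which the libraries numbered 3 of the first batch lay lowest and highest in every group.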

How the data were processed

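The deposited files hold raw counts per gene, 1 table per library. Per the methods, the authors aligned reads to hg38 with STAR, dropped reads with more than 1 position, and counted GENCODE v32 genes with HTSeq in union mode without strand. The labels name STAR 2.7 and HTSeq 0.11.1, and the methods name other versions of both. Each batch was analysed separately with edgeR 4.0.16 in R 4.3.3: TMM scaling, a minimum of 0.5 for the mean normalized count (23410 and 28724 genes), all groups of the batch in 1 quasi-likelihood fit, and Benjamini-Hochberg adjustment over all genes, with calls at 0.01. CPM are counts scaled to the effective library size. Each standard error was derived as the size of the log2 change divided by the square root of edgeR's F statistic. Same-numbered libraries of the first batch deviated together, with a mean correlation of deviations of 0.388 (0.265, 0.286 and 0.612 among libraries numbered 1, 2 and 3) against -0.187 for unlike numbers. The main fits did not pair these libraries. Standard errors and p-values of the first batch are therefore unpaired, except where the block is named. Isozyme ratios used a prior count of 2. Alternatives were DESeq2 1.42.0, other scalings, no filter, only the groups compared, the replicate block and leaving out libraries. The edgeR fit was tested on simulated counts for the contrast of HIF-1α with WT cells in the second batch, with independent libraries and the same dispersion for all genes. The larger spread and correlated libraries of the first batch were not simulated. Named genes were all members, whether or not they passed, and the fixed lists of other genes. Members and lists were chosen with earlier results of these data known, and the analysis without the libraries numbered 3 was added after the data were seen. A count of 0 would allow up to 0.0393 CPM in the second batch and 0.0708 CPM in the first, for counting error only.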

Additional observations from a re-analysis of the deposited data

Results flagged for a closer look

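For 4 genes the effect of the IDR differed between the 2 structured domains, tested as the interaction contrast in the second batch. The difference in the log2 effect of the IDR, HIF-2α domain minus HIF-1α domain, was 1.4543 for ALDOC, 0.7004 for HK2, 0.3868 for GPI and 0.3192 for HK1. Groups of 3 libraries are too small for a screen for single outlying libraries.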

How the results depend on the processing

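The counts of members past the threshold in the second batch stayed within 1.5 times under DESeq2, both other scalings, no filter, the fit to only the groups compared and the replicate block. In the first batch they moved more. With no filter on low counts, 1 member passed for R30E against WT cells and 5 passed for HIF-2α, both against WT cells and against R27E. With the replicate block, which rests on the pairing by number, the counts were 2 for HIF-2α KIN, 7 for HIF-1α, 5 for HIF-2α against WT cells and 6 against R27E, and 3 for R30E against WT cells. In the fit to only the groups compared, 2 members passed for HIF-1α against R30E and 1 for HIF-2α against R27E. The cause of these moves was not tested, except that the last fits use fewer libraries. No share of all genes was counted under these settings.

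Leaving out 1 library gave counts of 2 to 4 for HIF-1α and 2 to 3 for HIF-2α against WT cells in the first batch, 2 to 4 for HIF-1α against R30E, 3 to 4 against HIF-1αDM and 2 to 4 for HIF-2α against R27E. In the second batch the ranges were 7 to 8 for HIF-2α/1α and 7 to 8 for HIF-2α against WT cells, 6 to 7 for HIF-2α against HIF-1α, 3 to 6 for the structured-domain effect and 3 to 5 for the interaction, and the IDR effect passed for 7 in each fit. The counts that moved by over 1.5 times were 2 for HIF-1α without the first WT library, 3 against R30E without the first HIF-1α library and 2 without the first or second R30E library, 3 against HIF-1αDM without the third HIF-1α library or any HIF-1αDM library, and 3 for the structured-domain effect without the first HIF-2α library. The values that changed sign had not passed the test: PFKL between HIF-2α and HIF-1α (-0.0319 with library totals only), ALDOC with HIF-2α (-0.282 to 0.0862 over the fits without 1 library), the IDR effect on PFKL (-0.0464 to 0.0045), the interaction of PFKP (-0.0768 to 0.0049), and the structured-domain differences in the log2 ratios of PFKP to PFKL (-0.0027 to 0.1313), PFKM to PFKL (-0.0136 to 0.1133) and ALDOC to ALDOA (-0.2683 to 0.7581). Of 747 values under the other settings, 677 kept their direction and side of the threshold, 18 lost their call, 51 gained one and 1 changed sign, and of 864 values without 1 library these counts were 789, 62, 8 and 5.

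Same-numbered libraries of the second batch deviated together by only 0.0219 on average, so their numbers were not taken as pairs. The replicate block there gave 5 members for the interaction and 6 for the structured-domain effect. The main limits are 3 libraries per group, the shared bases of ALDOA, the unequal transgene levels, and the spread of the first batch.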
